A study of Homo sapiens with 4 samples.

Results

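The genes of the ER stress and ATF4 response were examined in SK-N-SH cells, an established human neuroblastoma line, after overexpression of the lncRNA *RP5-998N21.4*. The members were 36 named genes, taken by symbol from the 57820 genes of the count table. The counts of each gene were summed over its transcripts. Cells were transduced with a recombinant lentivirus that carried *RP5-998N21.4* under the EF1a promoter in the PHAGE-fullEF1a-MCS-IZS Green vector (OE, 2 libraries). Other cells received an empty lentivirus vector without an insert, whose backbone is not named (vector control, 2 libraries). All 4 libraries thus came from transduced cells of 1 line, and no untransduced cells were among them, although WT stands in the control titles. Nothing in the labels says that the 2 libraries of a group came from separate cultures, so the p-values measure the spread between these libraries only, which may be technical.

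Unfolded proteins in the endoplasmic reticulum (ER) are sensed by the membrane proteins IRE1 (*ERN1*), ATF6 and PERK (*EIF2AK3*). IRE1 acts through splicing of *XBP1* mRNA and ATF6 through its cleaved cytosolic part, and both raise transcription of chaperones and of the machinery of ER-associated degradation. PERK and its relative GCN2 (*EIF2AK4*), a sensor of amino acid shortage, phosphorylate the translation factor eIF2, which favors translation of ATF4. ATF4 in turn activates genes of amino acid synthesis, amino acid uptake and tRNA charging, a program called the integrated stress response. Much of the control of ATF4, XBP1 and ATF6 acts on translation, splicing or cleavage, which gene counts do not measure.

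Some members carry promoter elements known from these arms. The elements are shown because genes with the same element differed in how OE and vector control compared, as described further on. The RefSeq promoter table (GRCh38.p14, 250 bases before to 50 bases after each gene start) held 33 of the 36 members, all except *PDIA3*, *SHMT2* and *SLC7A11*. An exact ER stress element, CCAAT followed by 9 bases and CCACG, was found on either strand in 7 members (*HSPA5*, *HSP90B1*, *CALR*, *CANX*, *CRELD2*, *PDIA6* and *XBP1*) and in 27 of 35116 windows of all genes (0.0769%). A gene can have several windows, and counted by gene, 25 of 27305 genes (0.0916%) had the element. The C/EBP-ATF response element, TGATGNAA, was found in *ASNS*, *CHAC1*, *HERPUD1* and *SLC3A2* and in 3.62% of all windows (4.46% of genes). The unfolded protein response element, TGACGTGG, was found in *HYOU1* and in 0.729% of all windows (0.927% of genes). A match is a description of the letters and not evidence of binding. Stretches of 5 members with the first element and of 2 with the second follow on the strand of the gene, with the match in capitals and 12 bases on each side.
*HSPA5*, 66 bases upstream of the gene start, chr9:125241379-125241421, minus strand: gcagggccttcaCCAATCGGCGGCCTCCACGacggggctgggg
*HSP90B1*, 89 bases upstream, chr12:103930309-103930351, plus strand, element in reverse: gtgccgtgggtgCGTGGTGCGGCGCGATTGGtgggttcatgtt
*CALR*, 225 bases upstream, chr19:12938372-12938414, plus strand, element in reverse: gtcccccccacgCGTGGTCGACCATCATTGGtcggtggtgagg
*PDIA6*, 86 bases upstream, chr2:10812841-10812883, minus strand: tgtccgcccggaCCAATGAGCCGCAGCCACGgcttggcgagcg
*XBP1*, 52 bases upstream, chr22:28800591-28800633, minus strand: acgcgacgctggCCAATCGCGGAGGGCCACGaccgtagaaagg
*ASNS*, 68 bases upstream, chr7:97872457-97872488, minus strand: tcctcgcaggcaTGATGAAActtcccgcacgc
*CHAC1*, 209 bases upstream, chr15:40953250-40953281, plus strand, element in reverse: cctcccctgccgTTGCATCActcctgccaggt

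Library totals lay between 23785164 and 28307591 counts, and mitochondrial genes took 6.01% to 6.50% of them. *RP5-998N21.4* itself was counted 2407 and 2808 times in OE, against 32 and 33 times in the vector control, as the labels state. Of 12 neuroblastoma markers, 11 had at least 100 counts on average and *TH* was at 0 in every library. Of 7 markers of blood, epithelial, liver, glial and basal cells, none had more than 34 counts in any library, and their summed level, scaled to the library total, was 1.34 and 2.19 counts per 1000000 counts (CPM) in OE against 2.44 and 3.03 CPM in the vector control, with *ALB*, *MOG* and *KRT5* at 0. The summed level of the neuroblastoma markers was higher in OE, at 2642 and 1681 CPM against 1228 and 1237 CPM. Without *VIM*, which gave 31466 counts in OE 1 and 10869 in OE 2, the sums were 1363 and 1297 CPM against 887 and 896 CPM. At an unadjusted p under 0.05, 7 of the 11 markers tested were higher and 0 lower in OE, where 10.1% and 10.7% of all genes were, and DESeq2, at the thresholds given below, called 6 higher, where it called 4.35% of all genes higher. The secretory granule protein *CHGA* (log2 fold change 1.39 ± 0.10 SE, edgeR adjusted p = 0.0449, and up to 0.296 under the alternatives) was among them, and the part of these markers in the results that follow was not tested. A smaller share of cells with a gene on and less RNA per cell cannot be told apart in such bulk libraries.

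All 5 enzymes of amino acid synthesis and folate metabolism and 2 of the 3 amino acid transporters had both OE libraries above both vector control libraries, an order that 27.8% of all genes showed. Of the 13 ER chaperones and folding factors, 7 had both OE libraries below, against 27.6% of all genes, and 1 had both above. The difference between the roles was not tested. All 36 members were among the 20528 genes tested with edgeR's quasi-likelihood test on TMM-normalized counts, with Benjamini-Hochberg adjustment. The study called genes that passed an adjusted p of 0.01 and differed by over 0.5 on the log2 scale. With these thresholds edgeR called 0 members and 0 of all genes (0%). limma-voom called 0 genes as well. At an unadjusted p under 0.05 there were 4269 genes in edgeR. DESeq2, the tool the study used, called 12 members at the same thresholds, 6 higher and 6 lower, where 4.35% of all genes were called higher and 4.42% lower. The edgeR count and the DESeq2 count thus differ for the same counts.

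At an adjusted p under 0.05 and a log2 fold change above 0.5, edgeR called 3 members higher in OE, the enzymes *PSAT1*, *ASNS* and *MTHFD2*, where 0.283% of all genes were called. It called 0 members lower at this threshold, where 0.312% of all genes were called, and at an unadjusted p under 0.05 it had 9 members lower. At an unadjusted p under 0.05, 9 of 36 members (25%) were higher in OE and 9 (25%) were lower, against 10.1% and 10.7% of all genes. All 9 higher members were ATF4-linked, and the 9 lower members were 6 chaperones or folding factors, *EDEM1* and the eIF2 kinases *EIF2AK3* and *EIF2AK4*. In 11 members the lower OE library exceeded the higher vector control library, and in 10 members the OE libraries were both below, again beside 27.8% and 27.6% of all genes. Without vector control 1 the first of these counts was 18, and the share of all genes was then 38.7%, since fewer libraries overlap less often. The counts over the whole list were thus near the background for non-overlap. The median log2 fold change was 0.13 over the members and 0.01 over all genes tested. Leaving out 1 library at a time gave 0.02 (OE 1), 0.04 (OE 2), 0.07 (vector control 2) and 0.11 (vector control 1) for the members.

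**Figure D1:**
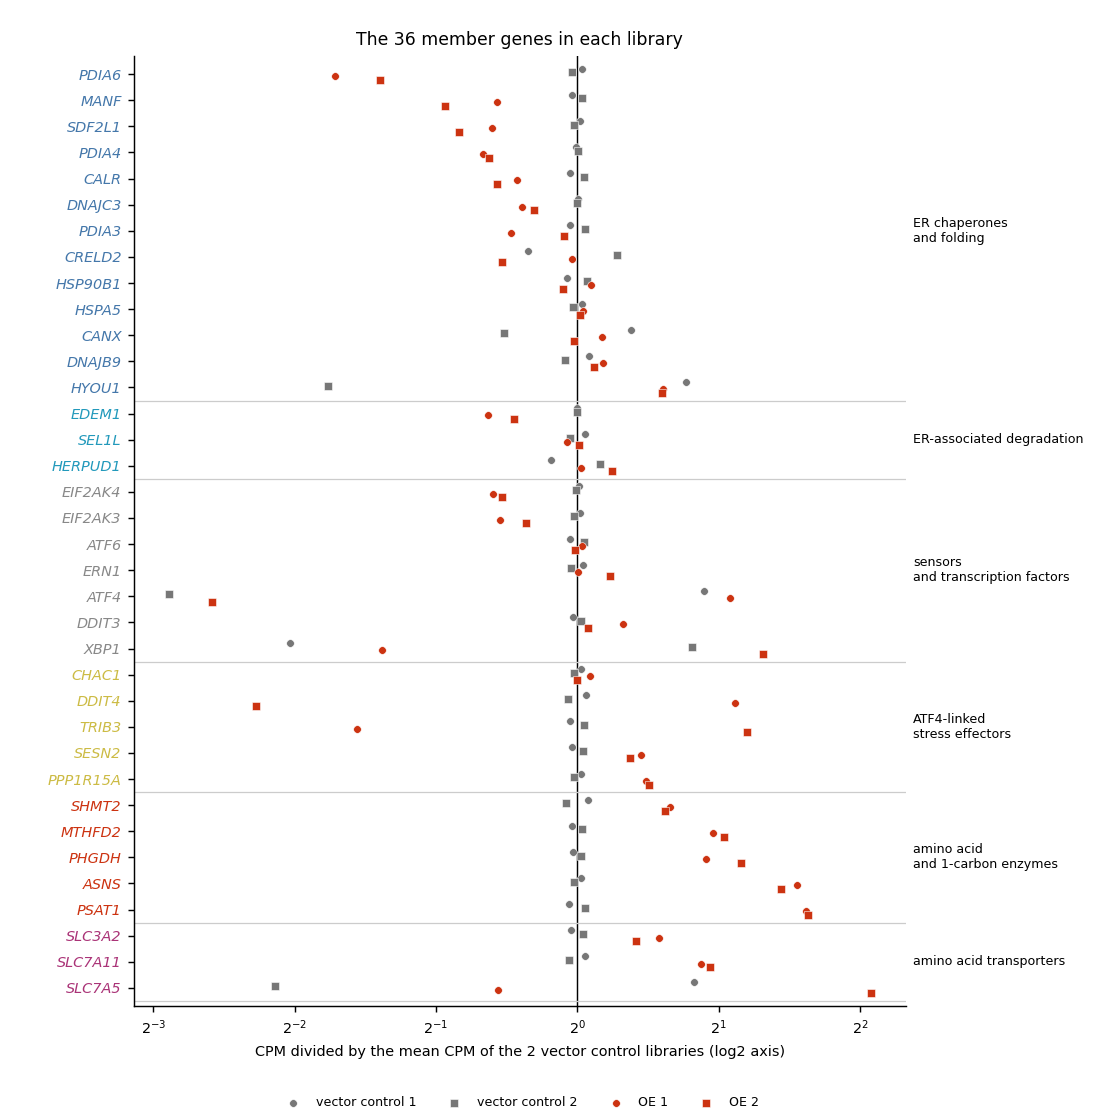
Level of each of the 36 members in each library, as CPM divided by the mean CPM of the 2 vector control libraries on a log2 axis, with genes grouped by role. Grey symbols are vector control and red symbols OE. The amino acid and folate enzymes lie to the right of the line in both OE libraries, *PDIA6*, *MANF*, *SDF2L1*, *PDIA4* and *CALR* lie to its left in both, and 6 genes such as *ATF4* scatter by more than 2-fold within a group.

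The 5 enzymes of amino acid synthesis and folate metabolism were higher in both OE libraries. *PSAT1*, a transaminase of serine synthesis, had 85.1 and 92.2 CPM in the vector control and 272 and 274 CPM in OE. The groups were far apart and the OE libraries almost equal, with a mean of 88.7 ± 5.06 (SD, n = 2) against 273 ± 1.94 CPM. The difference was a 3.08-fold ratio of means (log2 fold change 1.62 ± 0.08 SE, edgeR adjusted p = 0.0298). *ASNS*, asparagine synthetase, had 40.2 and 38.9 CPM against 116 and 107 CPM. Its ratio of means was 2.82 (log2 fold change 1.50 ± 0.09 SE, edgeR adjusted p = 0.0382). *MTHFD2*, a mitochondrial folate enzyme, had 168 and 176 CPM against 336 and 353 CPM, and its ratio of means was 2.00 (log2 fold change 1.00 ± 0.07 SE, edgeR adjusted p = 0.0415). These 3 genes rose at the adjusted p of 0.05 with all 4 libraries. The call was lost with the replicate block (edgeR adjusted p from 0.277 to 0.296) and, narrowly, when each gene was counted by its most abundant transcript alone (0.0546 to 0.0550). With any 1 library left out their edgeR adjusted p lay between 0.0661 and 0.119, while the log2 fold change of *PSAT1* stayed between 1.56 and 1.68, that of *ASNS* between 1.44 and 1.55 and that of *MTHFD2* between 0.96 and 1.04.

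*PHGDH*, the dehydrogenase that opens serine synthesis, had 32.2 and 33.4 CPM in the vector control and 61.6 and 73.2 CPM in OE. Its log2 fold change was 1.04 ± 0.13 SE (edgeR adjusted p = 0.0749). *SHMT2*, which passes a carbon unit from serine to folate in mitochondria, had 20.4 and 18.3 CPM against 30.5 and 29.7 CPM. Its log2 fold change was 0.64 ± 0.11 SE (edgeR adjusted p = 0.106). Neither passed the edgeR thresholds, and DESeq2 called all 5 enzymes (adjusted p from 1.31e-108 for *PSAT1* to 6.54e-06 for *SHMT2*). The median log2 fold change of the 5 was 1.04 and lay between 0.96 and 1.16 under every alternative tried. Some pseudogenes of 3 of these genes had higher counts in OE as well. *PSAT1P3* went from 417 and 437 to 1729 and 1668 counts, and *MTHFD2P7* from 971 and 1023 to 2402 and 2663 counts. *ASNSP1* went from 25 and 16 to 107 and 65 counts, while *ASNSP5* (12 and 10, then 8 and 8) and *ASNSP3* (4 and 6, then 4 and 2) had no higher counts there. Such copies can share reads with the parent, so part of the level of *PSAT1*, *MTHFD2* and *ASNS* is uncertain. Exons of *NDUFA4L2*, which had 55 and 126 counts in vector control and 142 and 293 in OE, overlap *SHMT2* (475 and 431 against 765 and 860 counts) on the opposite strand, and the value of *SHMT2* is uncertain too. The counts of *SHMT2* also sat on different transcripts. ENST00000554467.1 held 61.7% in vector control 1, 0% in vector control 2, and 33.2% and 44.5% in OE. In all, 16 members had exons that overlap another gene.

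The ATF4-linked amino acid transporters showed the same order of libraries for 2 of 3 genes. *SLC7A11*, the cystine importer, had 175 and 162 CPM in the vector control and 310 and 323 CPM in OE (log2 fold change 0.91 ± 0.07 SE, edgeR adjusted p = 0.0521). *SLC3A2*, the chain shared by SLC7A11 and SLC7A5 transporters, had 177 and 188 CPM against 272 and 244 CPM (log2 fold change 0.50 ± 0.09 SE, edgeR adjusted p = 0.106). DESeq2 called *SLC7A11* higher (adjusted p = 4.49e-30). *SLC7A5*, the importer of large neutral amino acids, had 407 and 52 CPM in the vector control and 156 and 966 CPM in OE. Its libraries overlapped, its replicates were 7.82-fold and 6.21-fold apart, and its log2 fold change of 1.29 ± 1.38 SE was smaller than its error.

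**Figure D2:**
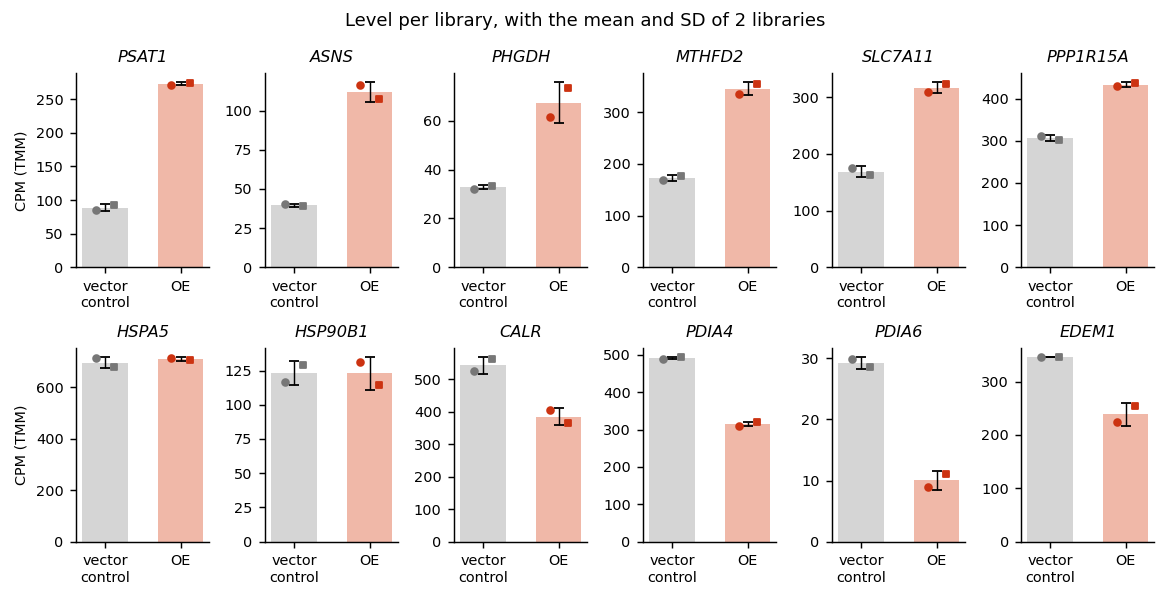
CPM of 12 members in each library on linear axes that start at 0, with bars for the mean, error bars for the SD of 2 libraries, circles for replicate 1 and squares for replicate 2. In the upper row the OE libraries lie above the vector control in all 6 genes, for example 272 and 274 against 85.1 and 92.2 CPM for *PSAT1*. In the lower row *HSPA5* and *HSP90B1* overlap between the groups and the other 4 are lower in OE.

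Among the 5 ATF4-linked stress effectors, 2 (40%) had both OE libraries above both vector control libraries, beside 27.8% of all genes. With only 5 genes, this count is near that share. *PPP1R15A* (GADD34), which brings phosphatase to eIF2, had 312 and 301 CPM in the vector control and 428 and 436 CPM in OE (log2 fold change 0.50 ± 0.05 SE, edgeR adjusted p = 0.0671). *SESN2*, an inhibitor of mTORC1 signaling, had 115 and 122 CPM against 161 and 153 CPM (log2 fold change 0.41 ± 0.08 SE, edgeR adjusted p = 0.115). Both had an unadjusted p under 0.05 in edgeR and a DESeq2 adjusted p under the threshold (7.92e-23 and 1.06e-06), and neither was called by DESeq2 because the log2 fold change did not exceed 0.5. *CHAC1*, a glutathione-degrading enzyme and a common readout of ATF4, had 26.4 and 25.5 CPM against 27.6 and 25.9 CPM, with overlapping groups. Its log2 fold change was 0.05 ± 0.10 SE, although its promoter held the same C/EBP-ATF response element as that of *ASNS* shown above.

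*TRIB3*, a pseudokinase that restrains ATF4, had 135 and 145 CPM in the vector control, and the OE libraries lay on either side of them at 47.4 and 321 CPM. *DDIT4*, another mTORC1 inhibitor, showed the reverse order, with 121 and 111 CPM in the vector control and 250 and 23.9 CPM in OE. The fitted log2 fold changes of 0.40 ± 0.95 SE and 0.24 ± 1.13 SE were within the spread of the OE libraries. They were below 0 in limma-voom, at -0.13 and -0.65. The median of the 5 effectors, 0.40 in edgeR, was 0.04 in limma-voom for this reason, since *TRIB3* and *DDIT4* then stood below *CHAC1*.

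The transcription factors and sensors had no common direction. *ATF4* had 244 CPM in vector control 1 and 276 CPM in OE 1 but 17.7 and 21.8 CPM in vector control 2 and OE 2. Its replicates were 13.8-fold and 12.7-fold apart, so that its log2 fold change of 0.19 ± 1.73 SE has no reading. The counts of *ATF4* also sat on different transcripts, with 94.0% on ENST00000337304.2 in vector control 1 and 100% on ENST00000404241.2 in the other 3 libraries, and with the transcript of the highest mean count the log2 fold change was 4.07. Its pseudogene *ATF4P3* had between 1403 and 1846 counts in the 4 libraries and *ATF4P4* went from 399 and 346 counts without the insert to 1014 and 1113 with it. *XBP1* showed the mirror image by replicate number, with 22.6 and 35.6 CPM in vector control 1 and OE 1 and 162 and 230 CPM in vector control 2 and OE 2 (log2 fold change 0.52 ± 1.34 SE).

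*DDIT3* (CHOP), a factor linked to cell death under ER stress, had 52.9 and 55.0 CPM in the vector control and 67.4 and 56.8 CPM in OE. The groups did not overlap, but the log2 fold change was 0.20 ± 0.12 SE (edgeR adjusted p = 0.433). It was 0.08 without OE 1 and 0.32 without OE 2, and exons of *MARS1* and *MBD6* overlap it on the opposite strand. The ER stress sensors *ERN1* and *ATF6* overlapped between the groups, at 80.6 to 97.7 CPM and 139 to 149 CPM over the 4 libraries, with log2 fold changes of 0.12 ± 0.12 SE and 0.01 ± 0.08 SE. Without OE 1 or OE 2 the value of *ERN1* was 0.23 or 0.0047. The eIF2 kinases among the members, *EIF2AK4* and *EIF2AK3*, were lower in both OE libraries. The other eIF2 kinases, looked up after these values were seen, were not, with 214 and 225 CPM against 226 and 253 CPM for *EIF2AK2* and an overlap for *EIF2AK1* (log2 fold changes 0.13 ± 0.09 SE and -0.04 ± 0.07 SE). *EIF2AK4* had 57.0 and 56.2 CPM against 37.5 and 39.1 CPM (log2 fold change -0.56 ± 0.09 SE, edgeR adjusted p = 0.0933, DESeq2 adjusted p = 1.78e-09). *EIF2AK3* had 20.0 and 19.4 CPM against 13.4 and 15.3 CPM (log2 fold change -0.45 ± 0.13 SE, edgeR adjusted p = 0.184, DESeq2 adjusted p = 0.0138). Thus *EIF2AK4* was called lower by DESeq2 and not by edgeR, and *EIF2AK3* by neither. The counts of *EIF2AK3* sat on different transcripts, with 98.5% on ENST00000303236.3 in OE 1 and 11.3% to 17.2% in the other libraries, and its log2 fold change was -1.27 with the transcript of the highest mean count.

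**Figure D3:**
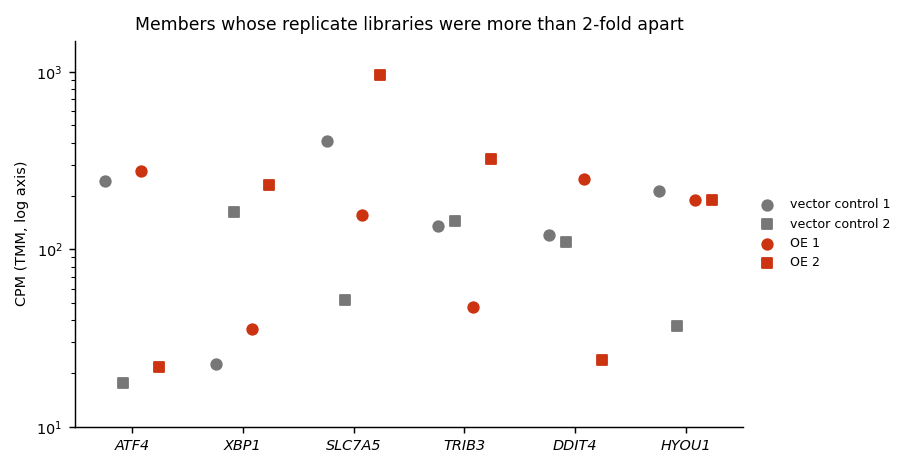
CPM on a log axis of the 6 members whose replicates were more than 2-fold apart in at least 1 group, with grey for vector control, red for OE, circles for replicate 1 and squares for replicate 2. *ATF4* is high in both libraries numbered 1 and *XBP1* in both numbered 2, while *TRIB3* and *DDIT4* differ between the OE libraries only.

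The 6 members *ATF4*, *XBP1*, *SLC7A5*, *TRIB3*, *DDIT4* and *HYOU1* had replicates more than 2-fold apart, a grouping made after their values were seen. This is 16.7% of the members, against 11.7% of the 14023 genes that averaged 4 CPM or more. The cause was not tested.

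The ER chaperones and folding factors formed the largest role, with 13 genes. *HSPA5* (BiP), the central ER chaperone and the usual readout of ER stress, had 711 and 679 CPM in the vector control and 714 and 705 CPM in OE. The groups overlapped, and the log2 fold change was 0.03 ± 0.05 SE (edgeR adjusted p = 0.774). *HSP90B1* (GRP94) had 117 and 129 CPM against 132 and 114 CPM, again with overlap and a log2 fold change of -0.00 ± 0.11 SE. *DNAJB9*, a cochaperone of BiP and a target of spliced XBP1, had 53.8 and 47.9 CPM against 57.7 and 55.1 CPM (log2 fold change 0.15 ± 0.11 SE, edgeR adjusted p = 0.494, and 0.06 to 0.23 with 1 library left out).

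As counted above, 7 of the 13 lay lower in both OE libraries, where 27.6% of all genes did. *PDIA4*, a disulfide isomerase, had 490 and 494 CPM in the vector control and 310 and 319 CPM in OE, a ratio of means of 0.640 (log2 fold change -0.64 ± 0.05 SE, edgeR adjusted p = 0.0509). *CALR*, the lectin chaperone calreticulin, had 525 and 562 CPM against 404 and 367 CPM (log2 fold change -0.50 ± 0.08 SE, edgeR adjusted p = 0.0939). *MANF*, a secreted ER stress-induced protein, had 38.1 and 40.0 CPM against 26.4 and 20.5 CPM (log2 fold change -0.74 ± 0.16 SE, edgeR adjusted p = 0.138). These values were lower by more than the spread of the libraries, without passing the edgeR threshold. The counts of *MANF* sat on different transcripts, however. ENST00000470900.1 held 98.5% in vector control 1, 26.1% in vector control 2, and 63.8% and 81.6% in OE.

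*SDF2L1*, a partner of BiP, had 18.7 and 18.2 CPM against 12.1 and 10.3 CPM (log2 fold change -0.72 ± 0.14 SE, edgeR adjusted p = 0.119). *DNAJC3* (p58IPK), an inhibitor of eIF2 kinases, had 109 CPM in both vector control libraries and 83.1 and 88.3 CPM in OE (log2 fold change -0.35 ± 0.08 SE, edgeR adjusted p = 0.146). DESeq2 called *PDIA4*, *PDIA6*, *SDF2L1* and *MANF* lower (adjusted p from 2.06e-51 to 0.000675).

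*PDIA6*, another disulfide isomerase, had the lowest OE level relative to the vector control of all members, with 30.0 and 28.6 CPM against 8.93 and 11.1 CPM (log2 fold change -1.55 ± 0.16 SE, edgeR adjusted p = 0.0649). It lies at chr2:10923517-10978103 (hg19, minus strand), and exons of *ATP6V1C2*, a proton pump subunit, overlap it on the opposite strand. The *ATP6V1C2* gene went from 265 and 280 counts to 990 and 2840 in OE, while *PDIA6* went from 698 and 672 to 224 and 322. The use of strand in the counting is not given in the sources used here, so reads of the 2 genes cannot be told apart, and the *PDIA6* value is uncertain. *PDIA3* is uncertain as well, because its processed copy *PDIA3P* took 640% to 819% of its counts. *PDIA3* had 107 and 115 CPM in the vector control and 80.3 and 104 CPM in OE (log2 fold change -0.27 ± 0.16 SE, edgeR adjusted p = 0.421), and its log2 fold change was -0.09 without OE 1 and -0.47 without OE 2.

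*CANX*, the membrane-bound relative of calreticulin, had 668 and 359 CPM against 579 and 504 CPM and *CRELD2* had 12.9 and 19.9 CPM against 15.9 and 11.3 CPM, both with overlapping groups. *HYOU1*, a nucleotide exchange factor of BiP, had 214 and 36.9 CPM in the vector control and 191 and 190 CPM in OE. Its log2 fold change of 0.60 ± 0.88 SE rested on vector control 2, without which it was -0.17. The median log2 fold change of the 13 genes was -0.27 and lay between -0.39 and -0.23 under all alternatives. With all libraries in edgeR, the gene that holds this median is *PDIA3*, whose value is uncertain as said above. Of the members with the ER stress element shown above, *HSPA5*, *HSP90B1* and *XBP1* overlapped between the groups, whereas *CALR* and *PDIA6* were lower in both OE libraries.

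Of the 3 genes of ER-associated degradation, *EDEM1*, which routes misfolded glycoproteins to degradation, was lower in OE. It had 346 CPM in both vector control libraries and 223 and 253 CPM in OE (log2 fold change -0.54 ± 0.08 SE, edgeR adjusted p = 0.0942, DESeq2 adjusted p = 1.50e-07). *SEL1L*, the scaffold of the HRD1 ligase, had 279 and 259 CPM against 255 and 271 CPM. *HERPUD1*, an ER membrane protein of the same complex, had 41.9 and 53.3 CPM against 48.4 and 56.5 CPM. Both overlapped between the groups, with log2 fold changes of -0.03 ± 0.07 SE and 0.14 ± 0.17 SE.

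Per kilobase of the leading transcript, a length was at hand for 32 members, and these levels compare genes. In the vector control *CALR* stood highest at 286 CPM per kb, followed by *HSPA5* at 177 and *PDIA4* at 168. In OE *CALR* stood at 203 CPM per kb, *PPP1R15A* at 184 and *HSPA5* at 181. *PSAT1*, at 40.2 CPM per kb in the vector control and 124 in OE, stood below *PDIA4* in the former and above it (108) in the latter.

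The same comparison was made for 76 further genes of the unfolded protein and integrated stress responses, of which 73 were tested. These genes were chosen with earlier results of these data known, so their counts are no independent check of the members. edgeR called 0 of the 73 at the thresholds of the study. In edgeR 34 had an unadjusted p under 0.05, 23 (31.5%) higher and 11 (15.1%) lower, against 10.1% and 10.7% of all genes. DESeq2 called 21, 16 higher and 5 lower, where it called 4.35% and 4.42% of all genes. The 5 lower genes are 6.85% of the 73, near the share of all genes. With an adjusted p of 0.05 as the limit, edgeR called *STC2* and *ALDH1L2* higher and 0 genes lower. The plot of fold changes by role sets these genes beside the members.

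**Figure D4:**
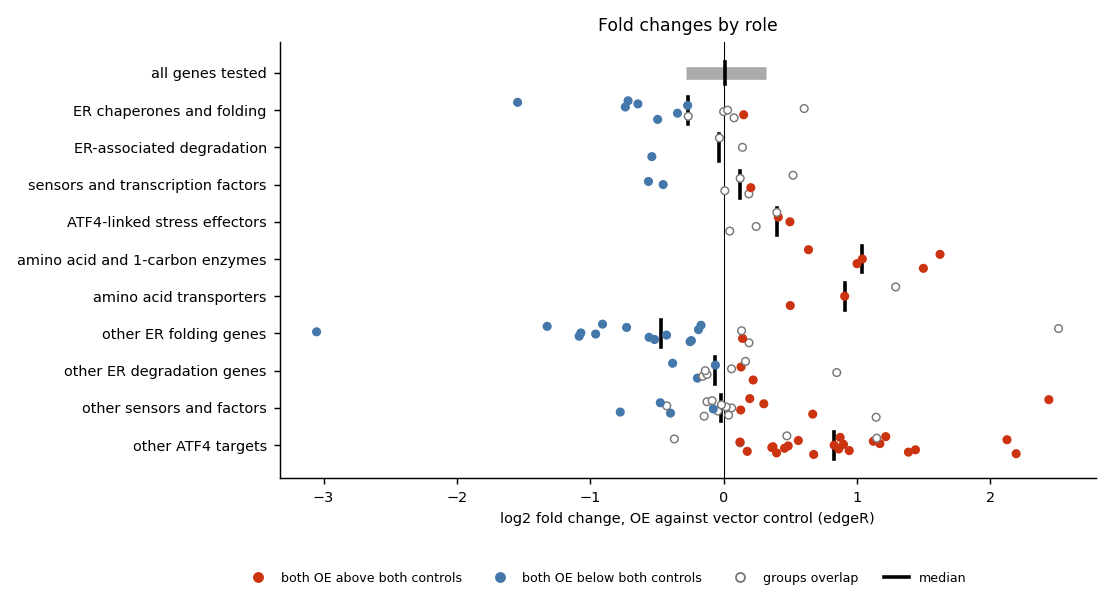
edgeR log2 fold change of each member and of 73 other pathway genes by list, with 1 point per gene and a black bar for the median of the list. The grey bar spans the quartiles of all 20528 genes tested. Red points are genes with both OE libraries above both vector control libraries, blue points the opposite, and open points overlap. The median is 0.83 for the other ATF4 targets and -0.47 for the other ER folding genes.

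Among 25 other ATF4 targets, 19 were higher and 0 lower at an unadjusted p under 0.05, 21 did not overlap between the groups, all with OE above, and the median log2 fold change was 0.83. Of all genes 10.1% were higher, 10.7% lower and 27.8% non-overlapping with OE above. DESeq2 called 14 of the 25 higher. *STC2*, a secreted glycoprotein hormone induced by ATF4, had 19.4 and 18.3 CPM in the vector control and 77.3 and 87.0 CPM in OE (log2 fold change 2.12 ± 0.11 SE, edgeR adjusted p = 0.0321). *ALDH1L2*, a mitochondrial folate enzyme, had 7.52 and 7.19 CPM against 32.0 and 35.3 CPM (log2 fold change 2.19 ± 0.12 SE, edgeR adjusted p = 0.0345). Both genes rose with all 4 libraries. The call was lost with the replicate block (edgeR adjusted p = 0.286 for *STC2* and 0.291 for *ALDH1L2*) and with the transcript of the highest mean count (0.0546 for both), and with 1 library left out their edgeR adjusted p lay between 0.0667 and 0.109. Of 11 aminoacyl-tRNA synthetases on this list, which charge tRNAs with amino acids, 8 were higher at an unadjusted p under 0.05 and 0 lower, with a median of 0.47, and DESeq2 called 4 higher. Replicates of *YARS*, which holds that median, and of *TARS* were more than 2-fold apart. The synthetase with the smallest p was *SARS*, for serine, with 56.2 and 53.4 CPM against 101 and 103 CPM (log2 fold change 0.90 ± 0.08 SE, edgeR adjusted p = 0.0615).

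Among 18 other ER folding genes, 8 were lower and 0 higher at an unadjusted p under 0.05, 14 did not overlap with OE below, and the median log2 fold change was -0.47. Of all genes 10.7% were lower, 10.1% higher and 27.6% non-overlapping with OE below. DESeq2 called 4 of the 18 lower. Replicates were more than 2-fold apart in *TXNDC5*, *SEC61A1*, *PPIB* and *SSR1*, of which the first 3 are among the 14. *KDELR2* and *KDELR3*, receptors that return chaperones to the ER, had log2 fold changes of -0.56 ± 0.06 SE and -1.08 ± 0.16 SE (edgeR adjusted p = 0.0707 and 0.0869). *KDELR2* had 363 and 352 CPM in the vector control and 235 and 250 CPM in OE. *P4HB*, the founding disulfide isomerase, had 715 and 749 CPM against 554 and 534 CPM (log2 fold change -0.43 ± 0.05 SE, edgeR adjusted p = 0.0751).

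The other lists lay near 0. In 11 other ER degradation genes the median was -0.06, with 1 gene lower and 0 higher at an unadjusted p under 0.05. In 19 other sensors and factors the median was -0.02, with 4 higher and 2 lower, where 10.1% and 10.7% of all genes were. Among these *NUPR1*, a stress-induced transcriptional cofactor, had 1.85 and 2.34 CPM in the vector control and 10.6 and 12.1 CPM in OE (log2 fold change 2.44 ± 0.20 SE, edgeR adjusted p = 0.0563). *CREB3L2*, an ER-anchored transcription factor, had 254 and 240 CPM against 141 and 148 CPM (log2 fold change -0.78 ± 0.07 SE, edgeR adjusted p = 0.0615). DESeq2 called both, with an adjusted p of 1.43e-20 for *NUPR1* and 1.02e-24 for *CREB3L2*.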

How the data were processed

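RNA was sequenced from 4 libraries of SK-N-SH cells, 2 OE and 2 vector control, as the labels group them. Reads were aligned by the authors to hg19 using Bowtie2, and the deposited values are raw counts, 1 whole number per transcript and library. The tools in the submitters' processing notes were Bowtie2 2.0.4, Picard 2.21.6, StringTie 2.1.6 and DESeq2. The annotation release and the use of strand are not given in the sources used here. Counts were summed per gene, filtered by filterByExpr and tested with edgeR 4.0.16 (quasi-likelihood, TMM, R 4.3.3), with DESeq2 1.42.0 and limma 3.58.1 as alternatives. CPM are TMM-normalized, and the SE is the log2 fold change divided by the square root of F. Other alternatives were RLE and upper-quartile factors, other count filters, the non-legacy edgeR setting, a replicate block, the transcript with the highest mean count, leaving out mitochondrial genes and leaving out each library. For 2 against 2 libraries no exact permutation p falls below a two-sided p of 0.333, so no such test was run. The scripts were tested on simulated data with a smaller spread between replicates than in these data, where the common edgeR dispersion was 0.122. That run does not measure how well genes are called at the spread seen here.

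The members and lists were chosen with earlier results of these data known. All 36 members were described. Of the other pathway genes, any called by edgeR at the study thresholds were to be named, which gave 0, and in each direction the 4 with the smallest edgeR p among genes that averaged 1 CPM or more with groups that did not overlap. The 11 aminoacyl-tRNA synthetases were grouped after their values were seen. Other pathway genes called by DESeq2 alone are given as counts unless they were among the 4 in each direction. Members called by DESeq2 alone are named. Positions and overlaps came from GENCODE v44lift37 (GRCh37), promoters from RefSeq (GRCh38.p14). Counts carry counting error at this depth, and a gene at 0 is below a limit of 3 counts. The result for 1 marker gene is not reported here.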

Additional observations from a re-analysis of the deposited data

How the results depend on the processing

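The count of members called at the study's thresholds was 0 in edgeR and in every alternative other than DESeq2, which called 12 members (12 also on genes with at least 10 counts in total), and the looser adjusted p of 0.05, which gave 3. The other pathway genes gave 0, against 21 in both DESeq2 runs and 2 at an adjusted p of 0.05. Over all genes, edgeR called 0, the non-legacy setting 8, a minimum of 1 count 9, the transcript of highest mean count 1 and DESeq2 1800 and 1722. The cause of the gap between edgeR and DESeq2 was not tested. The count of members with both OE libraries above the vector control was 11, and 14 to 18 with 1 library left out, where the share of all genes went from 27.8% to between 38.4% and 39.5%. Leaving a library out can hardly lower such a count. The median log2 fold change of the members, 0.13, was 0.17 with upper-quartile factors, 0.0834 in limma-voom and 0.0165 to 0.113 with 1 library left out. The libraries share only a replicate number: the deviations of same-numbered libraries had a correlation of -0.02, and the replicate block gave a members' median of 0.0823 and 0 members called, with the calls at an adjusted p of 0.05 lost (from 0.277 for *PSAT1* to 0.296 for *ASNS* and *MTHFD2*).

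Of 36 members, 22 kept the sign of their log2 fold change under all 15 alternatives. The sign turned in *HSP90B1* with upper-quartile factors (0.0389), a minimum of 1 count (0.00423) or a mean of at least 10 counts (0.00073), in *SEL1L* with upper-quartile factors (0.00727), in *CRELD2* with the transcript of highest mean count (1.85), in *TRIB3* in limma-voom (-0.13) and with the replicate block (-0.18), and in *DDIT4* in the same 2 (-0.65 and -0.58). With 1 library left out, where the lone library was assumed to vary like the other group, the values ranged from -0.00853 to 0.057 in *HSPA5*, -0.10 to 0.0952 in *HSP90B1*, -0.17 to 2.36 in *HYOU1*, -0.31 to 0.59 in *CANX*, -0.55 to 0.0753 in *CRELD2*, -0.030 to 0.32 in *HERPUD1*, -0.0893 to 0.0161 in *SEL1L*, -0.0455 to 0.0528 in *ATF6*, -1.38 to 2.54 in *XBP1*, -2.58 to 3.07 in *ATF4*, -1.56 to 1.20 in *TRIB3*, -0.000229 to 0.0894 in *CHAC1*, -2.28 to 1.11 in *DDIT4* and -0.56 to 3.42 in *SLC7A5*.

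Upper-quartile factors moved the median of all genes by 0.04. Non-overlap was not recomputed for DESeq2, limma-voom, non-legacy edgeR or the block. A planned look at the last residues of the members' proteins was not run.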
